A study of Mus musculus with 12 samples.

Results

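Cadherin 11 and a set of other cadherins were followed in mouse pancreatic tumours. The set holds 10 genes (Cdh1, Cdh2, Cdh3, Cdh4, Cdh5, Cdh6, Cdh8, Cdh11, Cdh13 and Cdh24), chosen by symbol and not by level, out of 52636 genes in the deposited table. All 10 were found by their Ensembl gene identifiers. The tumours are ductal adenocarcinomas of the pancreas that arose in KPC mice, in which engineered alleles produce a cancer like the human one, on a mixed background labelled C57BL/6;129. The first group, called wild-type untreated here, carried both Cdh11 alleles (Cdh11+/+) and received no drug, and the second, heterozygous untreated, carried 1 wild-type Cdh11 allele (Cdh11+/-). The remaining groups had the same genotypes and were given gemcitabine, a deoxycytidine analogue that blocks DNA synthesis. Each group had 3 mice and each mouse 1 library, so all 12 tumours share the KPC background. The sources used here do not give the alleles that make up KPC in these mice, their ages, the gemcitabine dose and schedule, or how the other Cdh11 allele was altered. The series addresses what Cdh11 does in pancreatic tumour growth and in the response to gemcitabine, and the comparisons below ask how Cdh11 and its relatives differ in level between genotypes and treatments.

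Cadherins are calcium-dependent adhesion proteins that reach across the gap between neighbouring cells. In a classical cadherin the outermost of a chain of extracellular repeats binds its counterpart on the next cell by exchanging a short strand anchored by tryptophan, while the intracellular tail binds β-catenin and p120-catenin and through α-catenin the actin cytoskeleton. Cells tend to carry characteristic members: E-cadherin (Cdh1) and P-cadherin (Cdh3) in epithelia, N-cadherin (Cdh2) in neural and mesenchymal cells, VE-cadherin (Cdh5) in endothelium and cadherin 11 in fibroblasts and other mesenchymal cells. In pancreatic cancer the ductal tumour cells are epithelial and are surrounded by a fibroblast-rich stroma.

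The start of the first extracellular repeat shows how the members are related. The sequences below were taken from mouse coding transcripts (GENCODE M21, GRCm38) and are shown because this strand separates type I from type II cadherins. Each run of 42 coding bases holds the 4 codons of the cleavage site that ends the prodomain, followed by the next 10 codons. Capitals mark tryptophan codons (TGG) after that site.

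Cdh1: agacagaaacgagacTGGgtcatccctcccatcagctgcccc

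Cdh3: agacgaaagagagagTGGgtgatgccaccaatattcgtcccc

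Cdh4: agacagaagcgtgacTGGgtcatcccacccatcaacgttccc

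Cdh5: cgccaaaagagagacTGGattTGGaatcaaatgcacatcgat

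Cdh6: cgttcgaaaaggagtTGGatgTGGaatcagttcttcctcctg

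Cdh8: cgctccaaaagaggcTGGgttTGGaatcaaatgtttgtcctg

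Cdh11: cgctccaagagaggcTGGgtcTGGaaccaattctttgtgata

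Cdh13: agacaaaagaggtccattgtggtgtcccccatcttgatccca

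Cdh24: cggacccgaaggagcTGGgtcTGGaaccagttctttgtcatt

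Cdh1, Cdh3 and Cdh4 had 1 tryptophan codon after the site, at codon 2, the arrangement of type I cadherins. Cdh5, Cdh6, Cdh8, Cdh11 and Cdh24 had 2, at codons 2 and 4, the arrangement of type II cadherins. Cdh2, whose sequence is not shown, also had 1, at codon 2. Cdh13 had none in this window. Its product, T-cadherin, is held in the membrane by a lipid anchor and lacks the catenin-binding tail, so the name classical cadherin does not describe it, although it is kept in the set by the rule that chose the members.

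On GRCm38, 6 of the 10 genes lie on chromosome 8. Cdh11 spans chr8:102632095-102785642 on the minus strand, and Cdh5 spans chr8:104101625-104144511 on the plus strand. Cdh3 (chr8:106510891-106557297) and Cdh1 (chr8:106603351-106670246) are neighbours on the plus strand, 46053 bases apart. Cdh8 (chr8:99024471-99416471, minus strand) and Cdh13 (chr8:118283733-119324921, plus strand) flank this stretch. The printed Cdh11 window is coding sequence at chr8:102679651-102679692, that of Cdh1 lies at chr8:106653570-106653611, and that of Cdh5 at chr8:104113022-104113063. The other printed windows lie at chr8:106536606-106536647 (Cdh3), chr2:179797548-179797589 (Cdh4), chr15:13091689-13091730 (Cdh6, minus strand), chr8:99400765-99400806 (Cdh8), chr8:118757404-118757445 (Cdh13) and chr14:54639383-54639424 (Cdh24, minus strand). Each printed window is free of introns. Among the 10 genes, exon overlap with another annotated gene was found for Cdh8, which shares 23 bases with the opposite-strand gene Gm15679, and Gm15679 had 0 counts.

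The summed expected counts of a library ranged from 39388328 to 56559413 (median 45785246), and 24065 genes passed the filter on low counts, among them 9 of the 10 cadherins. The epithelial markers Epcam (108 to 520 CPM, counts scaled to a common library total) and Krt19 (182 to 1060.0 CPM) and the fibroblast marker Col1a1 (573 to 6504.9 CPM) were present in all 12 tumours. The acinar marker Cpa1, the islet marker Gcg and the hepatocyte marker Alb had medians of 0.13, 1.32 and 0.156 CPM and were at 0 in 1, 2 and 1 libraries. Xist, which coats the inactive X chromosome, was high in 2 wild-type untreated, 1 heterozygous untreated and 3 wild-type treated tumours and in 0 treated tumours labelled heterozygous. In treated mice that split and the genotype labels therefore cannot be told apart.

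Cdh1 was the most abundant cadherin transcript of the set. Divided by exon length, its level averaged 129 ± 41.7 CPM per kilobase (SD over 12 tumours), and it ranked first in 12 of 12 libraries. Cdh13, Cdh11 and Cdh5 followed at 16.3 ± 6.02, 15.5 ± 7.21 and 15.3 ± 4.69 CPM per kilobase, and these 3 could not be put in an order beyond their spread. Cdh3 averaged 8.32 ± 5.58, Cdh2 4.85 ± 3.86 and Cdh6 4.24 ± 2.42 CPM per kilobase. Cdh24 averaged 1.38 ± 0.536, Cdh4 0.0549 ± 0.0258 and Cdh8 0.00555 ± 0.00899 CPM per kilobase. Cdh3, Cdh2 and Cdh6 varied most among the tested members, with the highest library 15.4, 15.2 and 9.17 times the lowest, against 2.79 times for Cdh1 and 2.82 times for Cdh5.

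Each member can be read as its share of the sum over the 10 genes, on the scale of CPM per kilobase. That sum was 202 ± 36.4 in wild-type untreated tumours (SD, n = 3), 181 ± 35.2 in heterozygous untreated, 249 ± 42.7 in wild-type treated and 149 ± 12.5 in treated tumours labelled heterozygous. Cdh1 took 57.9% ± 6.61 of the sum in wild-type untreated tumours, 71.9% ± 7.07 in heterozygous untreated, 70.8% ± 6.63 in wild-type treated and 61.9% ± 3.87 in treated tumours labelled heterozygous. Its lowest and highest shares in single tumours were 53.9% and 78.9%, so E-cadherin made up most of the set in every library on this scale. On CPM not divided by exon length its share ran from 42.6% to 68.1% and was under 50% in 4 of 12 libraries. Cdh11 took 13.1% ± 5.88 in wild-type untreated tumours and 6.86% ± 1.03 in heterozygous untreated. Its share was 4.96% ± 2.08 in wild-type treated tumours and 8.14% ± 2.80 in treated tumours labelled heterozygous. The 3 wild-type untreated tumours gave Cdh11 shares of 11.1%, 19.8% and 8.58%, each above the 7.90%, 6.85% and 5.83% of the heterozygous untreated tumours. Cdh5 also had its highest mean shares in wild-type untreated tumours (11.1% ± 3.32) and in treated tumours labelled heterozygous (10.3% ± 2.39), against 5.75% ± 0.751 in heterozygous untreated and 5.80% ± 1.44 in wild-type treated tumours. Cdh13 had its lowest share in wild-type untreated tumours, 5.32% ± 1.17, against 8.72% ± 3.24, 8.99% ± 2.06 and 10.8% ± 2.34 in the other groups in the same order. Shares sum to a fixed total, so a higher share of one member lowers the others, and they are given as descriptions without a test.

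**Figure D1:**
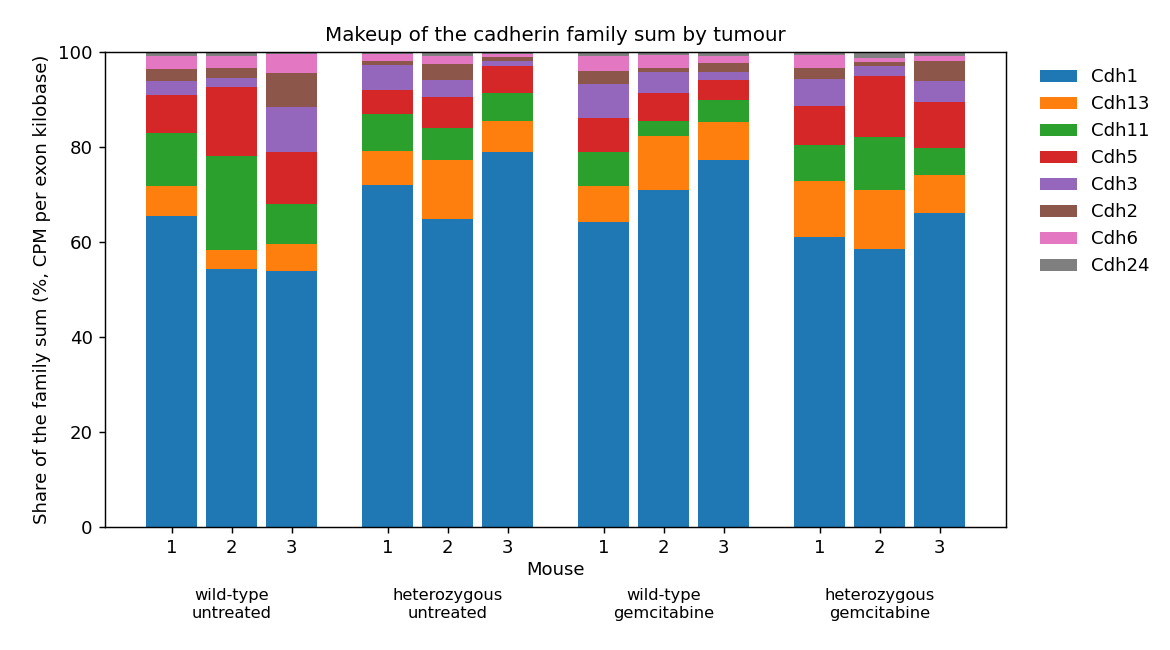
Shares of the cadherin members in their sum in each of the 12 tumours, in percent of CPM per kilobase, grouped by genotype and treatment. Cdh4 and Cdh8 are left out because their shares are too small to see. Cdh1 fills between 53.9% and 78.9% of each bar, and the Cdh11 segment runs from 3.07% to 19.8%.

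The ratio of Cdh11 to Cdh1, both per kilobase, sets the mesenchymal member against the epithelial one within a tumour. It was 0.169, 0.365 and 0.159 in the wild-type untreated tumours and 0.110, 0.106 and 0.0739 in the heterozygous untreated ones, with no overlap. In wild-type treated tumours it was 0.112, 0.0433 and 0.0597. In treated tumours labelled heterozygous it was 0.122, 0.192 and 0.0866. The untreated wild-type tumours had the highest mean ratio (0.231 ± 0.116, SD, n = 3), and mouse 2 of the treated tumours labelled heterozygous reached into their range. The ratio of Cdh11 to Cdh5, the endothelial member, was 1.19 ± 0.338 in wild-type untreated and 1.22 ± 0.325 in heterozygous untreated tumours (SD, n = 3), so this pair kept nearly the same proportion between the untreated genotypes. The mean ratio was 0.866 ± 0.311 in wild-type treated tumours and 0.790 ± 0.171 in treated tumours labelled heterozygous.

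**Figure D2:**
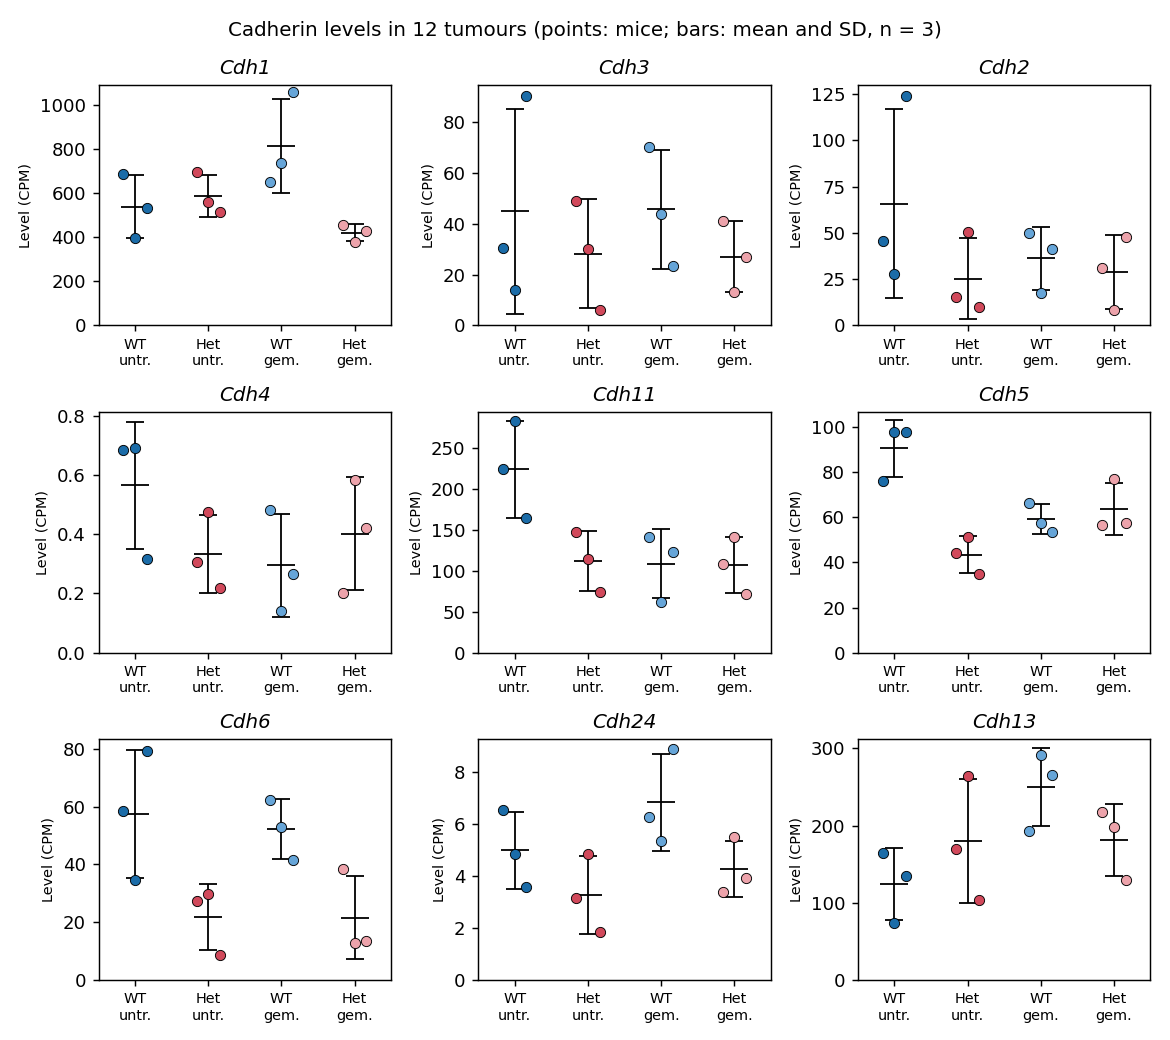
Level of each tested member in CPM in the 12 tumours, 1 panel per gene and 1 point per tumour, with the mean and SD of each group of 3. For Cdh11 the 3 wild-type untreated tumours lie between 165 and 283 CPM and the other 9 between 62.2 and 148 CPM.

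Untreated tumours were compared by genotype first. Cdh11 was at 225, 283 and 165 CPM in the 3 wild-type tumours and at 148, 115 and 73.7 CPM in the heterozygous ones. The groups did not overlap, and the means of 224 ± 58.8 and 112 ± 37.4 CPM (SD, n = 3) differed by more than either SD. The log2 fold change, heterozygous over wild-type, was -0.998 with a standard error (SE) of 0.37 and a 95% interval from -1.81 to -0.18. Over all genes tested it did not pass the threshold of 0.05 (edgeR adjusted p = 0.33). In a whole tumour, fewer cells of a type and less RNA per cell cannot be told apart.

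Cdh5, which holds endothelial cells together, was at 75.9, 97.9 and 97.8 CPM in wild-type untreated tumours and at 44.1, 51.2 and 34.8 CPM in heterozygous untreated tumours. Again the groups did not overlap. Its log2 fold change was -1.06 (SE 0.20, 95% interval -1.51 to -0.62), with the smallest p of the set in this comparison (edgeR adjusted p = 0.14). Cdh6, a type II cadherin known from kidney development, was at 58.6, 34.6 and 79.2 CPM against 27.3, 29.6 and 8.64 CPM. All 3 heterozygous tumours lay below all 3 wild-type ones, with a log2 fold change of -1.39 (SE 0.53, edgeR adjusted p = 0.33). Fitted with Xist as a covariate, Cdh6 had -1.10 (edgeR unadjusted p = 0.074).

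The other members overlapped between the untreated genotypes. Cdh1 was at 686, 398 and 533 CPM in wild-type and at 694, 558 and 512 CPM in heterozygous ones (log2 fold change 0.13, 95% interval -0.42 to 0.68). Cdh2 was at 45.6, 27.8 and 124 CPM against 15.2, 50.6 and 10.2 CPM (log2 fold change -1.38, SE 0.78, 95% interval -3.10 to 0.34). Without mouse 3 of the wild-type group its value was -0.54, and without mouse 2 of the heterozygous group -2.38. Cdh3 was at 30.5, 13.8 and 90.3 CPM against 48.8, 30.2 and 5.88 CPM, so single tumours of each genotype held its extremes. Cdh13 was at 164, 73.2 and 135 CPM against 170, 264 and 104 CPM (log2 fold change 0.54, 95% interval -0.28 to 1.35, or 0.15 without heterozygous mouse 2).

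Of the 9 members tested, edgeR called 0 in this comparison at an adjusted p under 0.05, and it called 0.0166% of all genes tested. At an unadjusted p under 0.05 there were 3 members, Cdh5, Cdh6 and Cdh11, all lower in heterozygous tumours, against 6.65% of all genes tested that were lower at that level. The same 3 did not overlap between the groups, and 8.41% of all genes tested were lower without overlap. When Xist was a covariate, Cdh5 and Cdh11 stayed at an unadjusted p under 0.05 and Cdh6 did not. The median log2 fold change was -0.75 over the 9 members and 0.04 over all genes tested, with 7 members lower and 2 higher. DESeq2, run on the same counts, called 1 member, Cdh5 (log2 fold change -1.08, DESeq2 adjusted p = 4.74e-04), and 2.92% of all genes tested.

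Markers of the cells in which Cdh11, Cdh5 and Cdh1 are best known are set beside them first, and those of other cell types after them. All 10 fibroblast markers were lower in heterozygous untreated tumours, with a median log2 fold change of -1.40, and 10 of 10 reached an unadjusted p under 0.05. edgeR called 0 of them, and DESeq2 called 4 (Fap, Lum, Pdgfrb and Thy1). Their summed level ranged from 18207 to 31609 CPM in wild-type untreated tumours and from 6173 to 12912 CPM in heterozygous untreated ones, and neither Col1a1 nor Pdgfra was at 0 in any library. Measured against the mean log2 level of these markers, Cdh11 stood at -1.48 ± 0.38 in wild-type untreated and -1.07 ± 0.35 in heterozygous untreated tumours (log2 units, SD, n = 3), so relative to them Cdh11 was not lower in the heterozygous tumours. All 10 endothelial markers were lower as well, with a median of -0.81. Of them 4 reached an unadjusted p under 0.05, edgeR called 0 and DESeq2 called 1 (Eng). Their sum ranged from 421 to 626 CPM in wild-type and from 217 to 320 CPM in heterozygous untreated tumours. Cdh5 relative to the endothelial markers was 1.28 ± 0.26 against 0.96 ± 0.17, a difference smaller than that of Cdh5 itself, and Pecam1 and Kdr were detected in all 12 tumours. Of 10 epithelial markers 9 were higher and 1 was lower, with a median of 0.22, and their sum ranged from 3046 to 4732 CPM in wild-type and from 3686 to 5244 CPM in heterozygous untreated tumours. Markers of the other cell types listed differed in direction. Mural markers were lower in 8 of 8 (median -1.19, sums of 534 to 743 CPM in wild-type and 207 to 366 CPM in heterozygous tumours), and macrophage markers in 8 of 8 (median -0.80, sums of 662 to 2005 and 513 to 711 CPM). Acinar markers were lower in 8 of 10 (median -8.29, sums of 11.0 to 495 and 9.78 to 34.9 CPM), and islet markers in 8 of 8 (median -5.97, sums of 17.5 to 249 and 0.616 to 5.18 CPM). edgeR called 0 of each of these lists, with 2 mural, 2 macrophage, 9 acinar (8 lower and 1 higher) and 7 islet markers at an unadjusted p under 0.05, while DESeq2 called 2 mural, 0 macrophage, 7 acinar and 5 islet markers. Hepatocyte markers were lower in 6 of 8 (median -1.05). Squamous or basal markers were higher in 4 of 5 tested (median 1.89) and Schwann or nerve markers in 5 of 7 (median 1.15). Adipocyte and mesothelial markers were higher in 3 of 5 each (medians 0.98 and 0.25). edgeR called 0 of these lists too, and DESeq2 called 2 squamous or basal markers and 1 Schwann or nerve marker. The part of any of these levels in the differences of Cdh11, Cdh5 and Cdh6 was not tested.

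**Figure D3:**
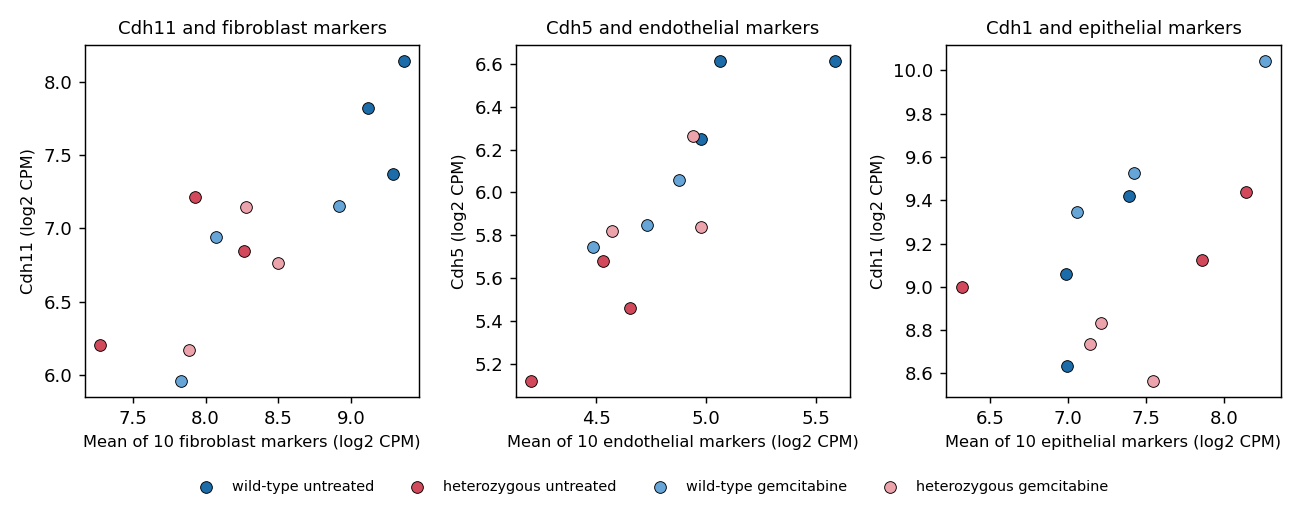
Cdh11, Cdh5 and Cdh1 against the mean level of the markers of the cell type each is best known from, in log2 CPM, 1 point per tumour coloured by group. For Cdh11 the distance to the fibroblast markers averages between -1.59 and -1.07 in the 4 groups.

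In wild-type mice, gemcitabine-treated tumours were compared with untreated ones. Cdh11 was at 142, 62.2 and 123 CPM after gemcitabine, below each of the untreated wild-type values (log2 fold change -1.04, SE 0.37, 95% interval -1.86 to -0.22, edgeR adjusted p = 0.56). Cdh5 was at 66.5, 57.6 and 53.6 CPM, also below every untreated wild-type tumour (log2 fold change -0.61, SE 0.20, edgeR adjusted p = 0.56). Cdh13 lay the other way, at 193, 291 and 265 CPM, above all 3 untreated wild-type tumours, with a log2 fold change of 1.01 (SE 0.38, edgeR adjusted p = 0.56). Thus Cdh11 and Cdh5 were lower while Cdh13 was higher, each without overlap and each short of the threshold.

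Cdh1 in the treated wild-type tumours was at 651, 738 and 1056 CPM. Its lowest value fell inside the untreated range, and the log2 fold change was 0.60 (SE 0.25, edgeR adjusted p = 0.56), or 0.37 without treated mouse 3. Cdh6 was at 62.5, 52.9 and 41.6 CPM, within its untreated range (log2 fold change -0.14, 95% interval -1.28 to 1.00). Cdh2 was at 49.9, 17.3 and 41.6 CPM and Cdh3 at 70.0, 43.7 and 23.4 CPM, and both overlapped with the untreated tumours.

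edgeR called 0 of 9 members here and 0% of all genes tested. At an unadjusted p under 0.05 there were 4 members (Cdh5 and Cdh11 lower, Cdh1 and Cdh13 higher), against 8.6% of all genes tested. Groups did not overlap for 3 members, against 13.7% of all genes tested. The median over members was -0.14, and 0.01 over all genes tested. DESeq2 called 0 members and 0.499% of all genes tested. Of the fibroblast markers 10 of 10 were lower (median -0.81), as were 10 of 10 endothelial markers (median -0.68), while 8 of 10 epithelial markers were higher (median 0.45). The summed fibroblast level after gemcitabine ranged from 9903 to 24292 CPM, overlapping the untreated wild-type range, and macrophage and islet markers were lower in 8 of 8 each (medians -0.84 and -3.95). The part of these levels in the member differences was not tested.

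In mice labelled heterozygous the drug was set against no drug in the same way. Cdh5 was at 56.5, 76.8 and 57.3 CPM after gemcitabine, above all 3 untreated heterozygous tumours (log2 fold change 0.55, SE 0.20, 95% interval 0.11 to 0.99, edgeR adjusted p = 0.59). Cdh1 was at 456, 379 and 427 CPM, below all 3 untreated heterozygous tumours, with a log2 fold change of -0.48 (SE 0.25, edgeR adjusted p = 0.65). Cdh11, at 109, 141 and 72.0 CPM, overlapped with the untreated values, and its log2 fold change was -0.07 with a 95% interval from -0.88 to 0.74. Cdh13 (217, 198 and 129 CPM), Cdh6 (38.3, 12.9 and 13.5 CPM), Cdh2 (31.2, 8.18 and 47.9 CPM) and Cdh3 (41.1, 13.1 and 27.1 CPM) overlapped too.

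edgeR called 0 of 9 members in this comparison and 0.00831% of all genes tested. Cdh5 alone reached an unadjusted p under 0.05, as a higher value, against 4.42% of all genes tested. Groups did not overlap for 2 members, Cdh1 and Cdh5, against 12.7% of all genes tested. The member median was 0.02, and that of all genes tested was -0.03. DESeq2 called 0 members and 0.706% of all genes tested. Here 9 of 10 fibroblast and 10 of 10 endothelial markers were higher after the drug, with medians of 0.37 and 0.37, and 7 of 10 epithelial markers were lower (median -0.43). Macrophage, mural and islet markers were higher in 8 of 8 each (medians 0.82, 0.92 and 3.89). The part of these levels was not tested.

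Whether gemcitabine acted differently in the 2 genotypes was tested as the difference of the effects, heterozygous minus wild-type. Xist was high in every treated wild-type tumour and in 0 treated tumours labelled heterozygous. The difference therefore cannot be told apart from Xist status in treated mice. For Cdh5 it was 1.16 on the log2 scale (SE 0.28, 95% interval 0.54 to 1.79, edgeR adjusted p = 0.25), since Cdh5 was lower after the drug in wild-type tumours and higher in those labelled heterozygous. For Cdh1 it was -1.08 (SE 0.35, 95% interval -1.86 to -0.30, edgeR adjusted p = 0.28), the opposite arrangement. A fit with Xist as a covariate, estimated from untreated tumours alone, gave -0.77 for Cdh1 and 1.12 for Cdh5. Cdh11 had a difference of 0.98 (SE 0.52, edgeR adjusted p = 0.48) and Cdh13 one of -0.995 (SE 0.53, edgeR adjusted p = 0.47), or -0.61 without heterozygous untreated mouse 2. edgeR called 0 of 9 members and 0.00831% of all genes tested. At an unadjusted p under 0.05 there were 2 members, Cdh5 and Cdh1, against 12.7% of all genes tested. DESeq2 called 1 member, Cdh5 (log2 difference 1.18, DESeq2 adjusted p = 0.019), and 2.71% of all genes tested. Endothelial and fibroblast markers lay in the same direction as Cdh5, 10 of 10 and 10 of 10 (medians 0.94 and 1.32). So did macrophage markers, 8 of 8 (median 1.79), islet markers, 8 of 8 (median 6.61), and mural markers, 8 of 8 (median 1.20). At an unadjusted p under 0.05 there were 5 of the fibroblast and 4 of the endothelial markers. So were 8 of the macrophage, 7 of the islet and 2 of the mural markers, and edgeR called 0 of each list. DESeq2 called 2 fibroblast, 1 endothelial, 1 macrophage, 5 islet and 1 mural marker. Of 10 epithelial markers 9 lay in the direction of Cdh1 (median -0.83). Their part was not tested.

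**Figure D4:**
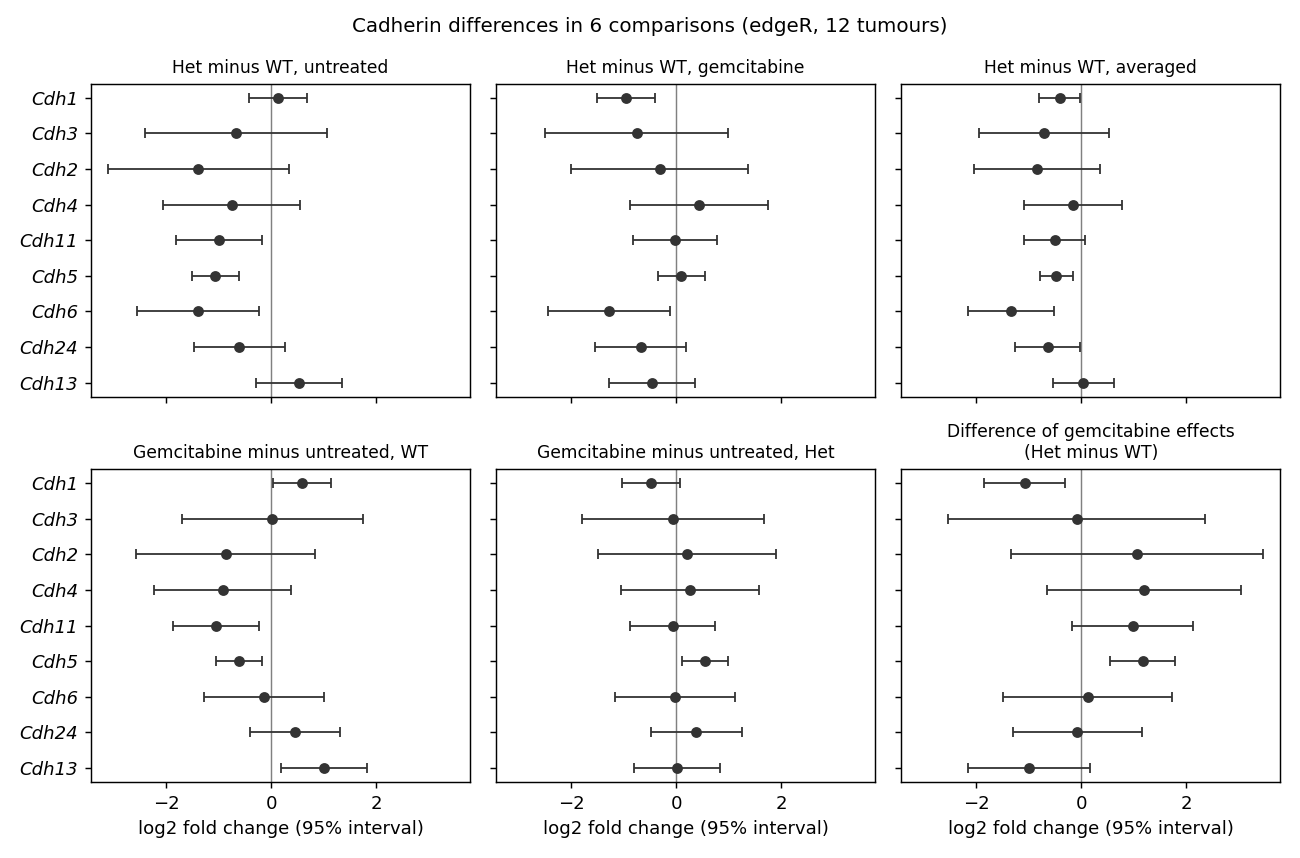
Log2 fold changes of the 9 tested members in the 6 comparisons, with 95% intervals from the edgeR model and a line at 0. Cdh5 sits at -1.06 for genotype in untreated tumours and at 0.10 in treated tumours, where its interval spans 0.

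Treated tumours were then compared by genotype label. The Cdh11 level does not separate the genotype labels here: treated tumours labelled heterozygous averaged 107 ± 34.7 CPM and treated wild-type tumours 109 ± 41.7 CPM (SD, n = 3). The log2 fold change of Cdh11 was -0.02, with a 95% interval from -0.83 to 0.79. The estimate of -0.998 from untreated mice lies outside that interval, but it has its own interval of -1.81 to -0.18. Tested directly, the 2 genotype differences differed by 0.98, with a 95% interval from -0.17 to 2.12 that includes 0 (edgeR adjusted p = 0.48). Counts over the whole gene can include transcripts of an altered allele, so this level alone is no check of the label. Directions below are therefore those of the tumours labelled heterozygous.

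Cdh1 was lower in each of the 3 treated tumours labelled heterozygous than in any treated wild-type tumour, with means of 420 ± 39.1 and 815 ± 213 CPM (SD, n = 3). The log2 fold change was -0.96 (SE 0.25, 95% interval -1.51 to -0.40, edgeR adjusted p = 0.55), and with Xist as a covariate it was -0.46. Cdh6 was also lower without overlap, at 21.6 ± 14.5 against 52.3 ± 10.5 CPM (log2 fold change -1.28, SE 0.53, edgeR adjusted p = 0.63), and with that covariate it was -0.52. Without mouse 1 of the tumours labelled heterozygous, and without the covariate, it was -1.98. Xist status did not vary within either treated group, so the covariate was estimated from untreated tumours alone. It cannot separate Xist status from the genotype label in treated tumours. The other members overlapped. Cdh5 had a log2 fold change of 0.10 with a 95% interval from -0.34 to 0.54. The estimate of -1.06 from untreated tumours lay outside it, and the direct test of that difference had an edgeR adjusted p of 0.25.

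edgeR called 0 of 9 members and 0.00416% of all genes tested. At an unadjusted p under 0.05 there were 2 members, Cdh1 and Cdh6, both lower, against 2.89% of all genes tested that were lower. The same 2 were lower without overlap, against 6.59% of all genes tested. The member median was -0.46, and the median over all genes tested was -0.03. DESeq2 called 1 member, Cdh1 (log2 fold change -0.95, DESeq2 adjusted p = 0.044), and 0.985% of all genes tested. Of 10 epithelial markers 8 were lower and 2 higher (median -0.48), and their sum ranged from 3144 to 4473 CPM in tumours labelled heterozygous against 3752 to 8221 CPM in wild-type. Cdh1 relative to the mean of these markers was 1.41 ± 0.34 against 2.06 ± 0.26 log2 units (SD, n = 3), so it was lower beside them too. Fibroblast markers were 5 lower and 5 higher (median 7e-04), acinar markers 9 of 10 lower (median -5.33), and macrophage and islet markers 8 of 8 higher each (medians 0.92 and 1.26). The part of these levels was not tested.

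Averaged over both treatments, Cdh6 had the smallest p of the set for genotype. Its log2 fold change was -1.34 (SE 0.37, 95% interval -2.16 to -0.52, edgeR adjusted p = 0.39), and with Xist as a covariate it was -0.81. In both treatment arms every tumour with the heterozygous label lay below every wild-type tumour of that arm, with group means of 57.5 and 52.3 CPM in wild-type tumours and 21.9 and 21.6 CPM in the others. Cdh5 had -0.48 (SE 0.14), Cdh24 -0.64 (SE 0.28) and Cdh1 -0.41 (SE 0.18), with edgeR adjusted p-values of 0.42, 0.63 and 0.62. With the Xist covariate Cdh1 was at -0.08. Here too that covariate was estimated from untreated tumours alone. The averages of Cdh5 and Cdh1 join unlike arms. Without the covariate, Cdh5 had -1.06 in untreated and 0.10 in treated tumours, and Cdh1 had 0.13 and -0.96. Cdh11 averaged -0.51 (SE 0.26, 95% interval -1.08 to 0.06, edgeR adjusted p = 0.70). edgeR called 0 of 9 members and 0.0332% of all genes tested. There were 4 members at an unadjusted p under 0.05, all lower, against 3.96% of all genes tested that were lower, and 8 of 9 had a negative sign. The member median was -0.51 and that of all genes tested 0.01. DESeq2 called 1 member, Cdh6 (log2 fold change -1.34, DESeq2 adjusted p = 0.038), and 1.26% of all genes tested.

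Against fibroblast markers Cdh6 had no such gap in untreated tumours: the distance was -3.49 ± 0.67 in wild-type and -3.56 ± 0.53 log2 units in heterozygous tumours (SD, n = 3). Against epithelial markers the distance was -1.36 ± 0.62 and -3.18 ± 0.20. The position of Cdh6 between the untreated genotypes therefore depended on the markers beside which it was read. In treated tumours the distance to fibroblast markers was -2.58 ± 0.43 in wild-type and -3.98 ± 0.68 in those labelled heterozygous, and that to epithelial markers -1.89 ± 0.91 and -3.06 ± 0.99, lower on average in the latter by both.

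The order of the groups differed from member to member. For Cdh11 the wild-type untreated group stood above the rest without overlap, and the other 3 groups, at 112, 109 and 107 CPM, did not differ beyond their spread. For Cdh5 the order was wild-type untreated (90.6 ± 12.7 CPM), treated labelled heterozygous (63.5 ± 11.5), wild-type treated (59.2 ± 6.59) and heterozygous untreated (43.3 ± 8.24), and of these neighbours the last 2 did not overlap. For Cdh13 it was wild-type treated (249 ± 50.7 CPM), treated labelled heterozygous (181 ± 46.2), heterozygous untreated (179 ± 80.0) and wild-type untreated (124 ± 46.2), with every pair of neighbours overlapping. Cdh1 was likewise ordered with overlap throughout, from wild-type treated (815 ± 213 CPM) to treated labelled heterozygous (420 ± 39.1 CPM).

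Cdh24, Cdh4 and Cdh8 were the rare members. Cdh24, a type II cadherin, had group means of 4.97 ± 1.49 CPM in wild-type untreated, 3.27 ± 1.5 in heterozygous untreated, 6.82 ± 1.85 in wild-type treated and 4.26 ± 1.08 in treated tumours labelled heterozygous (SD, n = 3), and ranked by mean, each group overlapped with the next. Cdh4, known as R-cadherin of the retina, lay between 0.139 and 0.692 CPM, and its highest group mean was 0.564 ± 0.215 CPM in wild-type untreated tumours. Cdh8, a cadherin of the nervous system, had 23 counts over all 12 libraries and did not pass the filter. It was at 0 in all 3 heterozygous untreated tumours, and a count of 0 in a library allows up to 3 counts. With at most 8 counts in any library, differences in Cdh8 were not detectable at this depth.

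The proteins that bind cadherin tails were measured in the same tumours. Of 29 catenins and partner genes listed, 28 were found and tested, and edgeR and DESeq2 each called 0 of them in every one of the 6 comparisons. Between 1 and 5 of the 28 reached an unadjusted p under 0.05 with edgeR, where between 7.55% and 12.7% of all genes tested did so. For genotype in untreated tumours 23 were lower and 5 higher, with a median log2 fold change of -0.17, and 2 reached an unadjusted p under 0.05. Ctnnb1, which encodes β-catenin, had a log2 fold change of -0.06 (95% interval -0.64 to 0.52) there, and Ctnna1, for α-catenin, one of -0.15 (95% interval -0.73 to 0.44). Ctnnd1, for p120-catenin, had -0.12 and Jup, for plakoglobin, -0.30. Over the 4 groups the mean of Ctnnb1 lay between 1026 and 1130 CPM. In treated tumours 19 partners were lower and 9 higher in those labelled heterozygous (median -0.10), with Ctnnd1 at -0.54 (SE 0.29, edgeR adjusted p = 0.74).

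Among 18 transcription factors and splicing regulators known to act on cadherin genes or on the epithelial state, edgeR also called 0 in each comparison, with 2 to 5 of the 18 at an unadjusted p under 0.05, beside the same shares of all genes. DESeq2 called 3 for genotype in untreated tumours (Prrx1, Tcf4 and Zeb2), 2 for the difference of the drug effects (Esrp2 and Zeb2) and 0 elsewhere, beside 2.92% and 2.71% of all genes tested in those 2 comparisons. For genotype in untreated tumours 9 were lower and 9 higher (median -0.01), and 5 reached an unadjusted p under 0.05, all lower. Zeb2, a repressor of Cdh1, had a log2 fold change of -1.13 (SE 0.26, edgeR adjusted p = 0.19), from 227 ± 59.5 to 104 ± 24.7 CPM. Prrx1, a mesenchymal homeobox factor, had -1.75 (SE 0.45, edgeR adjusted p = 0.21). Snai2 and Twist1, repressors of Cdh1 in epithelial-mesenchymal transition, had -1.66 (SE 0.54) and -2.55 (SE 1.03), and Snai1 and Zeb1 had -0.93 and -0.54, while Cdh1 itself had 0.13 in the same comparison. Among the 9 that were higher were Foxc2 (1.73, SE 0.87), Elf3 (1.14, SE 0.56), Snai3 (0.99, SE 0.60), Ovol2 (0.80, SE 0.65) and Esrp2 (0.67, SE 0.31), named here after their values were seen, each at an unadjusted p above 0.05. For gemcitabine the values of Zeb2 were -1.01 (SE 0.26) in wild-type and 0.88 (SE 0.26) in mice labelled heterozygous, and the difference was 1.89 (SE 0.37, edgeR adjusted p = 0.25), the same arrangement as for Cdh5. The 8 macrophage markers were arranged like this too, lower after the drug in wild-type mice and higher in mice labelled heterozygous, 8 of 8 each way. So were islet markers, 8 of 8 each way, and endothelial markers, 10 of 10 each way. Fibroblast markers were lower in 10 of 10 and then higher in 9 of 10. The part of these markers was not tested.

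Of 13 further cadherin genes, 6 passed the filter (Cdh10, Cdh15, Cdh16, Cdh17, Cdh19 and Cdh23), and edgeR and DESeq2 each called 0 of them in every comparison, with at most 1 at an unadjusted p under 0.05. The most abundant was Cdh17, an intestinal cadherin without a catenin-binding tail, with group means between 93.0 and 139 CPM and libraries between 16.8 and 226 CPM. Cdh16, a kidney cadherin, had 2480 counts (54.2 CPM) in wild-type treated mouse 1 and between 1 and 307 counts in the other 11 libraries.

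Members were also compared across the 12 tumours on log2 CPM. Of the 36 pairs of tested members 0 had a Benjamini-Hochberg adjusted permutation p under 0.05, by Pearson's r or by Spearman's rho, with 100000 resamples each. Cdh3 and Cdh6 had the highest r, 0.787 (permutation p = 0.0021, adjusted p = 0.075; rho = 0.734, permutation p = 0.0085, adjusted p = 0.23). Without the 2 tumours farthest from the median of Cdh3 r was 0.55, and over deviations from the group means it was 0.883. Cdh4 and Cdh11 had an r of 0.727 (permutation p = 0.0074, adjusted p = 0.13; rho = 0.706, permutation p = 0.013, adjusted p = 0.23), which was 0.503 without the 2 farthest tumours and 0.658 within groups. For Cdh5 and Cdh11 r was 0.674 (permutation p = 0.016, adjusted p = 0.17; rho = 0.552, permutation p = 0.066, adjusted p = 0.43), 0.499 without the 2 farthest and 0.479 within groups. Cdh4 had only 6 to 31 counts in a library, so counting error weighs on its r with Cdh11. Cdh11 and Cdh1 had an r of -0.10 over all tumours, so their levels did not mirror one another.

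**Figure D5:**
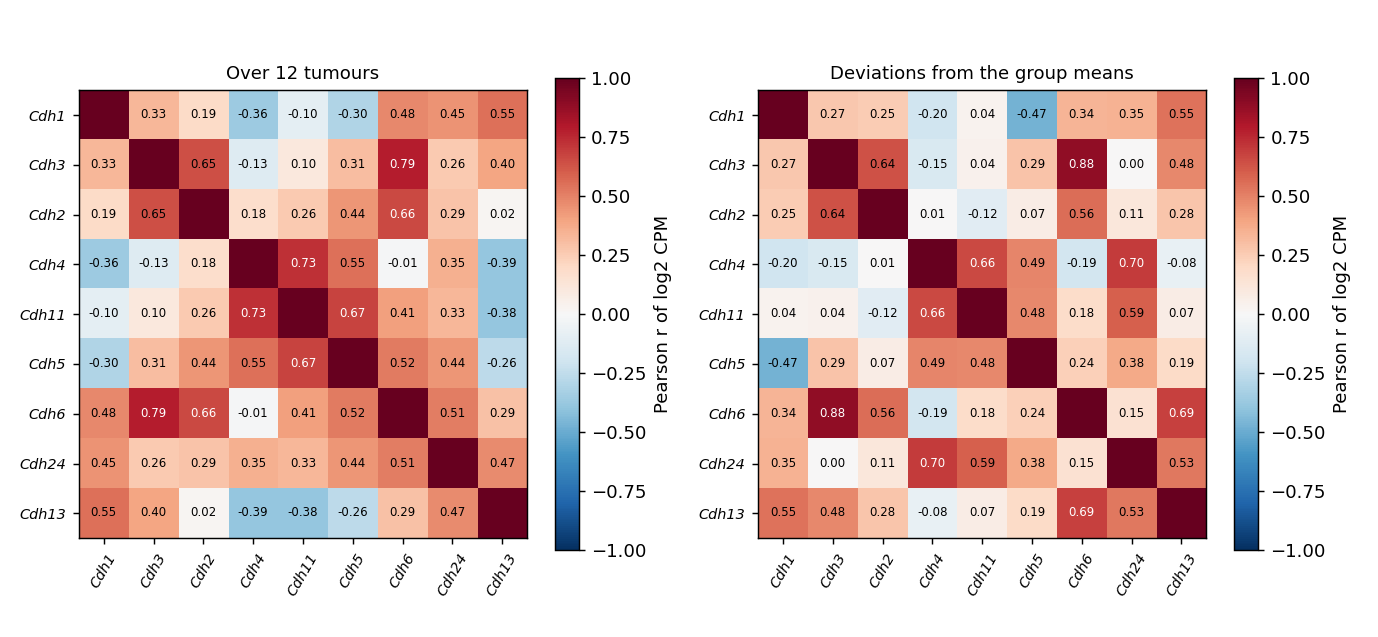
Pearson's r between the tested members over 12 tumours, in log2 CPM (left), and over deviations from the group means (right), with colour from -1 to 1. The highest value in each panel is that of Cdh3 and Cdh6, 0.79 and 0.88.

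The genes whose levels followed a member most closely were ranked by Pearson's r over the 12 tumours among 11590 genes of at least 5 CPM on average, as a description with no p. For Cdh11 they were Gria3 (r = 0.921), Gcg (0.919), Fap (0.911), Lhfpl2 (0.908) and Cyp1b1 (0.901), and within groups r was between 0.807 and 0.963. Fap encodes fibroblast activation protein and Gcg glucagon, and Gcg was at 0 in 2 libraries and at 101 CPM in the highest. For Cdh1 they were Tacc2 (0.969), Ino80 (0.944), Mcu (0.941), Ccdc25 (0.894) and Zfp64 (0.889). For Cdh5 they were Gnai2 (0.943), Fat4 (0.941), Hic1 (0.937), Rgs4 (0.934) and Arxes2 (0.934). The tumours of a group share genotype and treatment, which these values over all 12 tumours contain.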

How the data were processed

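RNA from snap-frozen tumours was sequenced as ribosome-depleted total RNA, per the labels' protocols. The files hold expected counts per Ensembl gene, which the authors deposited as whole numbers and which were made with RSEM on GRCm38, per the submitters' processing notes. For the RSEM version, aligner, annotation release and strand setting: not given in the sources used here. Groups came from the sample titles, and the 12 columns of a whole-series table were not used because the library files hold the same values. Symbols and exon lengths came from GENCODE M21 (GRCm38). CPM is the count scaled to a common library total.

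Counts were tested with edgeR 4.0.16 in R 4.3.3: filterByExpr over 4 groups, TMM factors (0.897 to 1.09), a robust quasi-likelihood fit to all 12 libraries (biological coefficient of variation 46.4%) and Benjamini-Hochberg adjustment over 24065 genes. The test was checked on simulated data. Alternatives were DESeq2 1.42.0, RLE factors, other filters, 2-group fits, a replicate block, an Xist covariate and each mouse left out. Values in log2 CPM were made with a prior count of 2. Permutations used numpy 2.4.6, and ranks came from scipy 1.17.1. P-values measure the spread between mice, and the limit given for a count of 0 covers counting error only.

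All 10 members are described. Cdh1, Cdh5 and Cdh11 are named in each comparison and the other tested members not in every one, while the figure of log2 fold changes shows all that were tested. The partners named, and Snai1, Snai2, Zeb1, Zeb2, Twist1 and Prrx1, were chosen by identity. Foxc2, Elf3, Snai3, Ovol2 and Esrp2 were named after their values were seen, and Tcf4 because DESeq2 called it. The 5 genes most like Cdh1, Cdh5 and Cdh11 were named by Pearson's r. The members and lists were chosen with earlier results of these data known.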

Additional observations from a re-analysis of the deposited data

Results flagged for a closer look

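Cdh5, the endothelial cadherin, lay in opposite directions after gemcitabine in the 2 genotypes. Its log2 fold change was -0.61 in wild-type mice, where all 3 treated tumours were below all 3 untreated ones, and 0.55 in mice labelled heterozygous, where all 3 treated tumours were above. The difference itself was 1.16 with an edgeR adjusted p of 0.25, so it did not pass over all genes tested. Nor can it be told apart from Xist status, which split the treated groups completely. For that difference endothelial and fibroblast markers lay the same way, 10 of 10 each, as did mural, macrophage and islet markers, 8 of 8 each, and their part was not tested.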

How the results depend on the processing

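The 9 tested members gave 54 log2 fold changes over the 6 comparisons. Of 354 refits with another normalization, filter, fit or covariate, 338 kept their direction and side of the threshold, 12 reversed and 4 passed the threshold. DESeq2 called 1 member in 4 comparisons where edgeR called 0 (genotype in untreated and in treated mice, the difference between drug effects, and the average over treatments); the cause was not tested. Over all genes DESeq2 called 703 (untreated) and 237 (treated) for genotype, 120 (wild-type) and 170 (labelled heterozygous) for gemcitabine, 652 for the difference and 304 for the average, against 4, 1, 0, 2, 2 and 8 with edgeR. Without a filter on low counts there were 10 for genotype in untreated mice, and fits of the 2 groups alone gave 2 for untreated and 12 for treated mice; the Xist covariate gave 0 for treated mice and 3 for the average.

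Over 18 pairs of same-numbered libraries r of the deviations from the group means lay between -0.25 and 0.17, and 4 were over 0.1. The sample titles do not say whether the replicate numbers pair mice, and these values cannot settle it. With the replicate block 0 members were called in each comparison, 0 genes for genotype in treated mice and 4 for the average, and Cdh3 for gemcitabine in wild-type mice became -0.0099, Cdh2 for gemcitabine in mice labelled heterozygous -0.23 and Cdh13 for the genotype average -0.0124.

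With Xist as a covariate Cdh3 became 0.035 for genotype in untreated mice, 1.03 in treated mice, -0.30 and 0.70 for the drug in wild-type mice and in those labelled heterozygous, 0.99 for the difference and 0.53 for the average. Cdh11 became 0.0373 for genotype in treated mice and Cdh6 0.25 for gemcitabine in mice labelled heterozygous, where a fit of those 2 groups alone gave Cdh6 0.0168. The covariate was estimated from untreated mice alone, since Xist status did not vary within either treated group. The cause was not tested.

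Leaving out 1 mouse at a time reversed 48 of 432 values, each for a result of at most 0.67 on the log2 scale, and 0 members were called in each comparison. The numbers of genes called over all genes ran from 2 to 12 for genotype in untreated mice (2 without wild-type mouse 1, 11 without wild-type mouse 3, 12 without heterozygous mouse 1) and from 0 to 3 in treated mice (3 without wild-type mouse 1, 0 without any other treated mouse). They ran from 2 to 9 for the drug in mice labelled heterozygous (9 and 5 without untreated mice 1 and 3), from 2 to 7 for the difference (7 and 4 without those mice, 4 without wild-type treated mouse 1) and from 3 to 13 for the average (13 without heterozygous untreated mouse 1, 5 and 4 without wild-type treated mice 1 and 3, and 3 without wild-type untreated mouse 2, wild-type treated mouse 2 or treated mouse 1 or 3 labelled heterozygous). For genotype in untreated mice the ranges of the values that reversed were -0.0401 to 0.34 for Cdh1 and -1.32 to 0.35 for Cdh3. For genotype in treated mice they were -0.30 to 0.22 for Cdh11, -0.88 to 0.13 for Cdh2 and -0.051 to 0.20 for Cdh5. For gemcitabine in wild-type mice they were -0.41 to 1.04 for Cdh3 and -0.39 to 0.16 for Cdh6. For gemcitabine in mice labelled heterozygous they were -0.31 to 0.19 for Cdh11, -0.26 to 0.40 for Cdh13, -0.36 to 1.20 for Cdh2, -0.54 to 0.59 for Cdh3, -0.0888 to 0.61 for Cdh4 and -0.72 to 0.26 for Cdh6. For the difference they were -0.36 to 0.32 for Cdh24, -1.10 to 0.56 for Cdh3 and -0.59 to 0.40 for Cdh6, and for the average -0.16 to 0.17 for Cdh13 and -0.33 to 0.12 for Cdh4. On CPM not divided by exon length 21 of 40 shares moved by more than 1 SD. At this depth differences in Cdh8 were not detectable.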
